A study of Mus musculus with 8 samples.

Results

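The genes of Toll-like receptors and of CD14 were described in tumor-associated macrophages (TAMs) of mice, 10 genes of the 23413 genes in the count table. The 10 rows were taken by gene symbol: Tlr1, Tlr2, Tlr4 and Tlr6 for receptors of the cell surface, Tlr3, Tlr7, Tlr8, Tlr9 and Tlr13 for receptors of endosomes, and Cd14 for the co-receptor. TAMs had been sorted from B16F10 melanomas, a transplantable tumor of C57BL/6 origin, grown under the skin of 8 male B6 mice aged 8 to 10 weeks. Thiostrepton, a thiopeptide antibiotic, had been given into the peritoneum of 4 mice (IP, n = 4), another 2 had been injected next to the tumor (IS, n = 2) and 2 had received the solvent (DMSO, n = 2). By the study's methods treatment was given on days 6 and 12 and cells were sorted on day 18 by the gate CD45+F4/80+CD11b+Gr-1-. The IS dose was 20 mg/kg. It was lower than either dose used by the IP route, and which IP dose these mice had and by which route each DMSO mouse was injected were not given in the sources used here. The sample label of the IS mice names the injection and not the drug, which is named in the description of the series. IP and IS mice therefore differ in both route and dose, and the effects of route and dose cannot be told apart.

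Toll-like receptors are membrane proteins of macrophages and other innate immune cells that bind conserved microbial molecules. TLR2, paired with TLR1 or TLR6, recognizes bacterial lipoproteins and TLR4 recognizes lipopolysaccharide (LPS), which LBP and CD14 hand over to the complex of TLR4 and MD-2. TLR3, TLR7, TLR8, TLR9 and TLR13 sense nucleic acids in endosomes, to which UNC93B1 carries them. Most of them signal through MYD88 to NF-kB and the MAP kinases, while TLR3 signals through TICAM1. In macrophages CD14 also helps the uptake of TLR4 into endosomes.

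Total counts ran from 14127506 to 17577466 per library, and 3 counts corresponded to 0.169 to 0.218 CPM (counts scaled to a common library size), the level under which a gene cannot be told from absent. The scaling used edgeR's TMM factors. The 12 macrophage markers were detected in each of the 8 libraries, among them Emr1 (F4/80), at 318 to 1020 CPM, and Itgam (CD11b), at 103 to 384 CPM. IS1 had the fewest genes with a count (12766, against 13083 in IS2 and 13412 to 14622 in the other libraries) and the most melanoma marker RNA, summed over 8 genes to 3063 CPM against 484 to 1759 CPM elsewhere. In sorted bulk RNA, fewer cells of a type and less RNA per cell cannot be told apart.

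The sequences before the start sites of 5 receptor genes are shown because these genes carry the 3 patterns described below: Tlr3 was higher in IS, Tlr2 was high in IS2 alone, and Tlr1, Tlr8 and Tlr13 were low together in IP1 and IS1. A RefSeq promoter entry matched 7 of the 10 genes (GRCm38.p6), and Tlr4, Tlr7 and Cd14 had none. The 250 bases before each start were searched on both strands for the NF-kB consensus, the PU.1 core GAGGAA, which binds the factor that directs macrophage development, and the repeat GAAANNGAAA bound by interferon regulatory factors. The stretches below leave out bases within annotated exons (GENCODE M21), except for Tlr3, where the match lay in a first exon and 30 bases around it are given. All are written 5′ to 3′ on the strand of the gene, with the matched bases in capitals.
Tlr2, chr3:83841768-83841858, minus strand: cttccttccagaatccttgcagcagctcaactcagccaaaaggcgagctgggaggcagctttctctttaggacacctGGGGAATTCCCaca
Tlr3, chr8:45410572-45410601, minus strand: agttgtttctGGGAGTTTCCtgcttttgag
Tlr1, chr5:64933564-64933808, minus strand: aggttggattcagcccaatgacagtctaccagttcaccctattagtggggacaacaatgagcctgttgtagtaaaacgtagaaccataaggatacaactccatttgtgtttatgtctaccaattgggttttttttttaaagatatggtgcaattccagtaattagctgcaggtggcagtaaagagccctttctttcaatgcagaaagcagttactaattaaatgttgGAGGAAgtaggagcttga
Tlr8, chrX:167264330-167264579, minus strand: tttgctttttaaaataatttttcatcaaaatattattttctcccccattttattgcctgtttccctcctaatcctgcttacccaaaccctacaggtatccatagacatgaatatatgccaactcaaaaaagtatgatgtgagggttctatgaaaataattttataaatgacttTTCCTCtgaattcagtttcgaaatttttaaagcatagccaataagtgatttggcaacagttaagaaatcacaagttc
Tlr13, chrX:106143025-106143203, plus strand: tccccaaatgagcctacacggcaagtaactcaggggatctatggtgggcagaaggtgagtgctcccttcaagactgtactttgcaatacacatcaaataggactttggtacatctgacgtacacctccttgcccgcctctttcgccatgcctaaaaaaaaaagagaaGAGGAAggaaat

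In Tlr2 and Tlr3 the capitals mark the NF-kB consensus, which 3.9% of 32851 promoter entries held in the same 250 bases, counted per entry. The Tlr2 letters matched in overlapping frames and on both strands, 173 to 163 bases before the start of its RefSeq entry. GENCODE exons covered 159 of the 250 bases searched for Tlr2, so the match lay closer to the GENCODE start. The Tlr3 match lay 211 to 202 bases before the start of its RefSeq entry. In Tlr1, Tlr8 and Tlr13 the capitals mark the PU.1 core, on the opposite strand in Tlr8, which 23.3% of promoter entries held. Tlr9 also held this core, 112 to 107 bases before its start, and Tlr6 held overlapping matches to the interferon factor repeat 116 to 101 bases before its start, a repeat found in 2.98% of entries. Tlr1 and Tlr6 each had 2 entries with different starts, and 1 entry of each held no match. No match to a motif overlapped a match to another motif. These are matches of letters and not measured binding sites.

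Levels of different genes were compared per kb of exon. In the DMSO mice Cd14 was the most abundant of the 10 transcripts, at 127 ± 2.0 CPM per kb (SD, n = 2). Tlr13, the receptor for a stretch of bacterial ribosomal RNA, followed at 43.6 ± 10.2 CPM per kb, and Tlr2 at 36.7 ± 11.1 CPM per kb overlapped it. Tlr1 (21.3 ± 4.42 CPM per kb) and Tlr4 (20.5 ± 3.33 CPM per kb) also overlapped each other, and Tlr7 (14.5 ± 0.38 CPM per kb) lay below both. Tlr8 (7.36 ± 0.37 CPM per kb), Tlr6 (3.68 ± 0.51 CPM per kb), Tlr3 (1.44 ± 0.44 CPM per kb) and Tlr9 (0.074 ± 0.11 CPM per kb) came last, with no overlap between neighbours. In the IS mice this order differed in each mouse. In IS1 Tlr3 stood at 3.31 CPM per kb against 2.14 for Tlr4 and 0.188 for Tlr8, whereas in IS2 Tlr3 stood at 4.57 CPM per kb against 14.8 for Tlr4 and 4.47 for Tlr8. The plot of length-scaled levels gives the same values library by library.

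**Figure D1:**
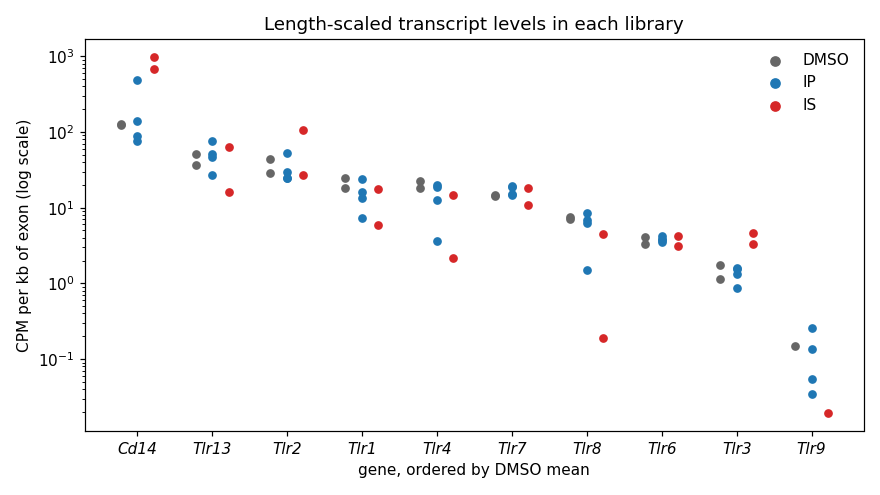
CPM per kb of exon (log scale) of the 10 genes in each library, ordered by the DMSO mean, with gray points for DMSO, blue for IP and red for IS. Tlr9 was at 0 counts in DMSO1 and IS2, which have no point. The 2 IS points of Cd14 lie above all others, and the IS1 point of Tlr8 lies at 0.188 CPM per kb.

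The 3 comparisons were made with edgeR's quasi-likelihood test over all genes: IP with DMSO, IS with DMSO, and IS with IP, of which the comparisons with DMSO share the same control mice. A gene was said to rise or fall when it met the study's criterion, an unadjusted P under 0.05 together with a change of at least 2-fold. No gene in any of the 3 comparisons had a Benjamini-Hochberg adjusted p under 0.05 with this test, so each of these calls failed correction for the number of genes tested. At an unadjusted P under 0.05 there were 418, 632 and 1049 genes in IP against DMSO, IS against DMSO and IS against IP. Adjusted p-values were under 0.05 for 10, 179 and 265 genes with edgeR's likelihood ratio test and for 19, 107 and 234 genes with DESeq2. Tlr9 was too low to be tested, which left 9 of the 10 genes in each comparison.

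Thiostrepton given into the peritoneum moved none of the receptor genes past the criterion. The counts were 0 of 9 higher and 0 of 9 lower, beside 1.53% of all 12174 genes higher and 0.468% lower, and 0% of genes passed adjustment. The count at an unadjusted P under 0.05 was also 0 of 9, and 0 of 9 met the criterion with edgeR's likelihood ratio test or DESeq2. The median log2 fold change of the 9 genes was -0.10, against 0.02 over all genes tested, and the adjusted p-values ran from 0.980 to 0.989. IP1 stood apart from the other IP mice for several genes, as given gene by gene below.

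In mice injected next to the tumor, Cd14 and Tlr3 rose against DMSO (2 of 9 higher, 0 of 9 lower). The background was 2.29% of 11680 genes higher and 2.77% lower, with 0% passing adjustment. The same 2 genes were higher in IS than in IP (2 of 9 higher, 0 of 9 lower), where 2.41% of 12206 genes were higher, 4.64% lower and 0% passed adjustment. The median log2 fold change of the 9 genes was -0.03 in IS against DMSO and -0.22 in IS against IP, against 0.02 over all genes tested in both. Of the 10 genes, Cd14 in IS against DMSO was the only one with an adjusted p under 0.05 in the likelihood ratio test, and the only one in DESeq2.

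**Figure D2:**
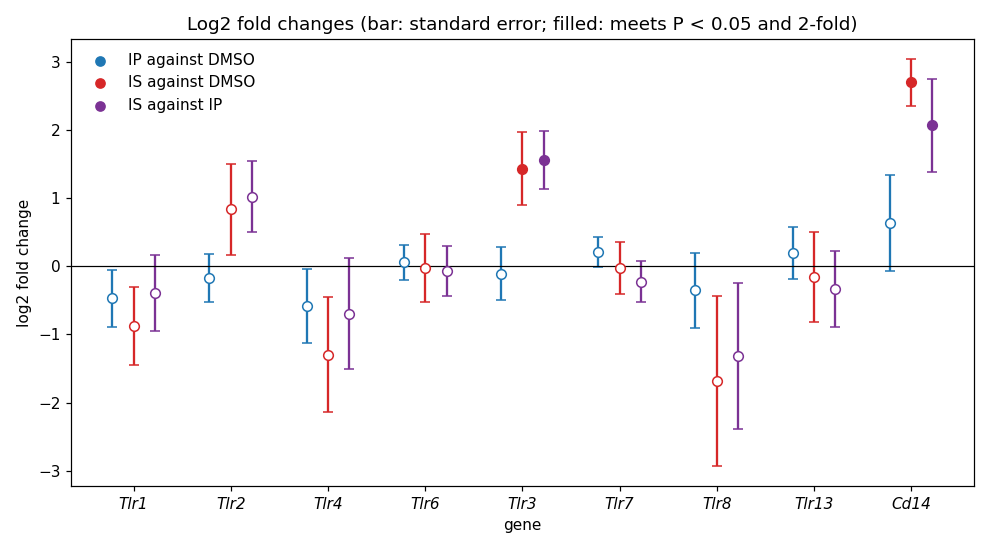
Log2 fold changes (y axis) of the 9 tested genes (x axis) in IP against DMSO (blue), IS against DMSO (red) and IS against IP (purple), with bars for the standard error. Filled points met the criterion of unadjusted P under 0.05 and 2-fold, which only Cd14 and Tlr3 did, in both comparisons of the IS mice.

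Cd14 (chr18:36725067-36726798, minus strand, GRCm38), the LPS co-receptor, stood at 217 and 222 CPM in DMSO1 and DMSO2. The IP mice had 850 CPM in IP1, 153 in IP2, 130.5 in IP3 and 245 in IP4. The IS mice had 1192 CPM in IS1 and 1710 in IS2. Both IS libraries lay above the other 6, and IP1 lay between the IS mice and the rest. Cd14 was 6.51-fold higher in IS than in DMSO (log2 fold change 2.70, SE 0.34, adjusted p = 0.533), and it ranked 6 among the 11680 genes by the test's P. With DESeq2 its adjusted p was 1.02e-11 and with the likelihood ratio test 8.03e-08. Against DMSO the log2 fold change was 2.38 with IS1 alone and 2.94 with IS2 alone.

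Against the IP mice Cd14 was 4.21-fold higher in IS (log2 fold change 2.08, SE 0.68, adjusted p = 0.449). The criterion was no longer met without IS2 (log2 fold change 1.79, adjusted p = 0.325), and without IP1 the log2 fold change was 3.04. In IP against DMSO the log2 fold change of Cd14 was 0.64 (SE 0.71, adjusted p = 0.980). This value rested on IP1, without which it was -0.32 (adjusted p = 0.999).

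The genes whose levels followed Cd14 most closely over the 8 libraries (of the 9319 non-member genes averaging 5 CPM or more) were Zfp36, which encodes a protein that speeds the decay of cytokine mRNAs (Pearson r = 0.983), and the nuclear receptor gene Nr4a1 (r = 0.982). These correlations describe libraries that fall into separate clusters and carry no test. Nr4a1 stood at 164 CPM in IP1, 263 in IS1 and 273 in IS2, against 5.02 to 15.2 CPM in the other 5 libraries. A list of 12 immediate-early genes drawn up after these values were seen, among them Fos, Jun, Egr1, Zfp36 and Nr4a1, summed to 8993 CPM in IP1, 7183 in IS1 and 9230 in IS2, and to 1628 to 2595 CPM in the other 5. Immediate-early genes are known for their induction within minutes of a stimulus. Their part in the Cd14 levels was not tested.

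Tlr3 (chr8:45395665-45411080, minus strand), the endosomal receptor for double-stranded RNA, was the only Toll-like receptor gene that met the criterion. It stood at 9.09 and 5.86 CPM in the DMSO mice. The IP mice had 4.52, 6.93, 8.07 and 8.28 CPM from IP1 to IP4, and the IS mice had 17.2 and 23.8 CPM. Both IS libraries lay above the 6 others, which overlapped one another. Tlr3 was 2.70-fold higher in IS than in DMSO (log2 fold change 1.43, SE 0.54, adjusted p = 0.880) and 2.95-fold higher in IS than in IP (log2 fold change 1.56, SE 0.43, adjusted p = 0.346). The criterion against DMSO was no longer met without DMSO1 (log2 fold change 1.77), without DMSO2 (1.14) or with scaling by library size alone (1.28), and the direction was the same in each. Its counts were modest, 102 to 134 in the DMSO libraries and 256 and 327 in the IS libraries. In IP against DMSO its log2 fold change was -0.10 (SE 0.40, adjusted p = 0.988).

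Markers of some other cell types had higher summed levels in the IS libraries, in which Cd14 and Tlr3 were high. Of 13 neutrophil marker genes, 12 were in the table, and their summed level was 296 CPM in IS1 and 530 in IS2 against 186 to 197 CPM in DMSO and 134 to 189 CPM in IP. None of the 12 was at 0 counts in an IS library, against 0 to 4 of them in the DMSO libraries and 0 to 5 in the IP libraries. Of the 11 tested neutrophil genes 5 rose in IS against DMSO, beside 2.29% of all genes. The granule gene Ngp, with 66 counts in IS1, 828 in IS2 and 0 to 34 elsewhere, was among the largest rises. Others did not meet the criterion, among them Cxcr2 and Csf3r. Cxcr2 stood at 171 CPM in IS1 and 65.3 in IS2, against 63.6 and 96.7 CPM in the DMSO mice. It alone gave 171 of the 296 CPM summed in IS1. Csf3r stood at 29.0 and 80.2 CPM in IS1 and IS2, against 55.5 and 24.8 CPM in the DMSO mice. The summed level of 8 B cell markers was 25.6 to 37.1 CPM in IS, 10.6 to 20.1 CPM in DMSO and 8.93 to 20.8 CPM in IP. The 12 T and NK cell markers summed to 37.7 to 55.9 CPM in IS, 9.59 to 29.0 CPM in DMSO and 4.33 to 20.9 CPM in IP. The 10 monocyte markers summed to 773 to 1168 CPM in IS, 1270 to 2248 CPM in DMSO and 665 to 909 CPM in IP. Neutrophils also express Cd14, and the Gr-1- gate of the sort is meant to remove them. The part of these cells in the Cd14 and Tlr3 values was not tested.

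**Figure D3:**
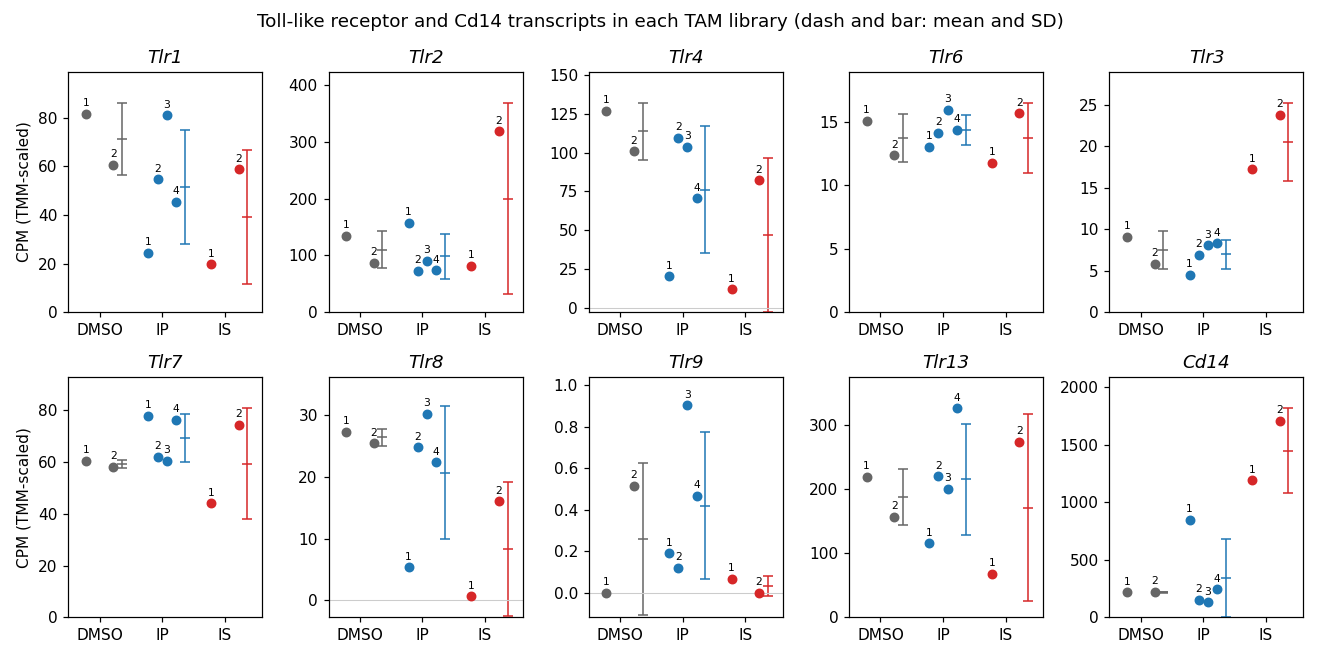
CPM (y axis, scale set for each gene) of the 10 genes in each library, with numbered points for the mice of the DMSO, IP and IS groups and a dash and bar for the mean and SD. IS1 and IS2 lie above the other mice for Cd14 and Tlr3, and IP1 and IS1 are the lowest 2 libraries for Tlr1, Tlr4, Tlr8 and Tlr13.

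Among the surface receptors, Tlr4 (chr4:66827584-66930284, plus strand), the signaling receptor for LPS, was lowest in libraries with high Cd14, IP1 and IS1. It stood at 127 and 101 CPM in the DMSO mice. In the IP mice it had 20.1 CPM in IP1, 109 in IP2, 104 in IP3 and 70.5 in IP4, and in the IS mice 11.9 in IS1 and 82.1 in IS2. IP1 and IS1 lay far below the other 6 libraries, and both IS libraries lay below both DMSO libraries. The log2 fold change was -1.30 in IS against DMSO (SE 0.85) and -0.58 in IP against DMSO (SE 0.55, adjusted p = 0.980), neither of which met the criterion. Set against DMSO, IS1 alone gave -3.32 (adjusted p = 1.52e-04) and IS2 alone gave -0.50 (adjusted p = 0.382). In these fits the lone IS mouse is assumed to vary as the DMSO mice did, and calls are common over all genes. With IS1 alone, 10.7% of 12349 genes met the criterion as higher, 17.1% as lower, and 19.5% passed adjustment. With IS2 alone, 10.1% of 12210 genes were higher, 14.4% lower, and 16.2% passed adjustment. Values for a lone mouse therefore describe that mouse and not the IS group.

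**Figure D4:**
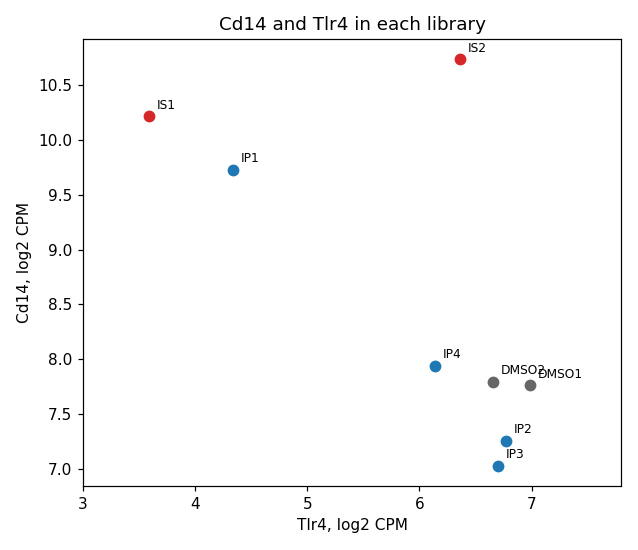
Log2 CPM of Cd14 (y axis) against log2 CPM of Tlr4 (x axis), 1 point for each library, gray for DMSO, blue for IP and red for IS. IP1 and IS1 combine the lowest Tlr4 levels with high Cd14, whereas IS2 has the highest Cd14 level with a Tlr4 level near those of IP4 and DMSO2.

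Tlr1 (chr5:64924679-64933563, minus strand), the partner of Tlr2 for triacylated lipoproteins, stood at 81.6 and 60.7 CPM in the DMSO mice. The IP mice had 24.5, 54.7, 81.0 and 45.5 CPM and the IS mice 19.7 and 58.7 CPM. Both IS mice lay below both DMSO mice, the IP mice overlapped both groups, and IP1 and IS1 were again the lowest libraries. The log2 fold change was -0.88 in IS against DMSO (SE 0.57) and -0.47 in IP against DMSO (SE 0.42).

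Tlr6 (chr5:64952031-64960097, minus strand), the partner of Tlr2 for diacylated lipoproteins, was the steadiest of the surface receptors. It ran from 12.4 to 15.1 CPM in the DMSO mice, from 13 to 15.9 CPM in the IP mice and from 11.8 to 15.7 CPM in the IS mice. The 3 groups overlapped throughout. Its log2 fold change was 0.06 in IP against DMSO (SE 0.26) and -0.02 in IS against DMSO (SE 0.50). Tlr1 and Tlr6 are neighbouring paralogs, and 454 of the 3332 stretches of 50 bases in Tlr1 transcripts (13.6%) also occur in Tlr6 transcripts. Reads from those stretches could have been assigned to either gene, so the split between the 2 is uncertain to that extent. No other pair of the 10 genes shared a stretch of this length.

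Tlr2 (chr3:83836272-83841767, minus strand), which senses lipoproteins with either partner, differed between the IS mice. It stood at 134 and 86.9 CPM in the DMSO mice. The IP mice had 157 CPM in IP1, 73.3 in IP2, 90.0 in IP3 and 73.6 in IP4. The IS mice had 81.3 CPM in IS1 and 319 in IS2. IS2 was the highest library and IS1 lay below both DMSO mice. The log2 fold change was 0.84 in IS against DMSO (SE 0.67) and 1.02 in IS against IP (SE 0.52). IS2 alone met the criterion against DMSO (log2 fold change 1.51, adjusted p = 0.0142), while IS1 alone gave -0.50 (adjusted p = 0.377). IS2 also had the larger neutrophil marker sum of the pair, as given above. IP1, the next highest library for Tlr2, had a neutrophil marker sum of 189 CPM, between the DMSO sums of 186 and 197 CPM. The part of neutrophils in the Tlr2 levels was not tested.

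Of the endosomal receptors other than Tlr3, Tlr8 (chrX:167242696-167264329, minus strand) spread most widely. Its counts were 403 and 443 in the DMSO mice, 84, 408, 536 and 383 in IP1 to IP4, and 10 and 220 in IS1 and IS2. In CPM these are 27.3 and 25.4 in DMSO, 5.35, 24.8, 30.2 and 22.3 in IP, and 0.673 and 16 in IS. Both IS mice and 3 of the 4 IP mice lay below both DMSO mice, and IS1 lay lowest, though above the 0.202 CPM that 3 counts make in that library. The log2 fold change was -1.68 in IS against DMSO (SE 1.25) and -1.31 in IS against IP (SE 1.07). With IS1 alone it was -5.34 (adjusted p = 4.07e-05) and with IS2 alone -0.75 (adjusted p = 0.159).

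Tlr7 (chrX:167304929-167330558, minus strand), the single-stranded RNA receptor next to Tlr8 on the chromosome, did not follow it. It ran from 58.2 to 60.4 CPM in the DMSO mice, from 60.5 to 77.9 CPM in the IP mice and stood at 44.1 and 74.3 CPM in IS1 and IS2. The 4 IP mice lay above both DMSO mice. The log2 fold change was 0.22 in IP against DMSO (SE 0.22) and -0.03 in IS against DMSO (SE 0.38). In IP1, where Tlr8 was low, Tlr7 was at its highest.

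Tlr13 (chrX:106143204-106160493, plus strand) stood at 219 and 157 CPM in the DMSO mice, at 116, 220, 200.2 and 326 CPM in IP1 to IP4, and at 68.3 and 274 CPM in IS1 and IS2. The 3 groups overlapped, with IS1 and IP1 at the low end and IP4 and IS2 at the high end. The log2 fold change was 0.20 in IP against DMSO (SE 0.38) and -0.15 in IS against DMSO (SE 0.66). With IS1 alone it was -1.52 (adjusted p = 0.0165) and with IS2 alone 0.52 (adjusted p = 0.385), opposite directions.

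Tlr9 (chr9:106222598-106226883, plus strand), the receptor for CpG DNA, was near the detection limit. Its counts were 0 and 9 in DMSO1 and DMSO2, 3, 2, 16 and 8 in IP1 to IP4, and 1 and 0 in IS1 and IS2. No difference between groups was detectable at this depth. The 9 markers of plasmacytoid dendritic cells, a cell type known for high Tlr9, summed to 140 to 196 CPM in IS, 161 to 257 CPM in IP and 189 to 207 CPM in DMSO, with Tcf4 and Bst2, which macrophages also express, in that list.

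**Figure D5:**
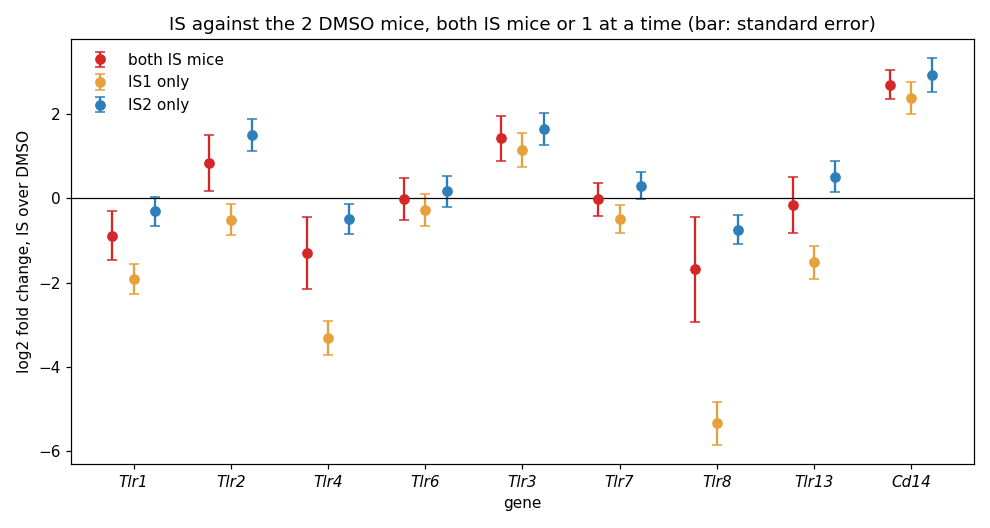
Log2 fold change over the 2 DMSO mice (y axis) of the 9 tested genes (x axis), with both IS mice (red), IS1 alone (orange) or IS2 alone (blue) and bars for the standard error. Cd14 and Tlr3 lie above 0 in each fit, whereas Tlr2, Tlr6, Tlr7 and Tlr13 lie below 0 with IS1 and above 0 with IS2.

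The IS mice gave different accounts of most receptors. With IS1 alone, 6 of the 9 genes met the criterion against DMSO, beside the large share of all genes given above for lone mice: Cd14 and Tlr3 were higher and Tlr1, Tlr4, Tlr8 and Tlr13 were lower. With IS2 alone, 3 of 9 did, all higher: Cd14, Tlr3 and Tlr2. IS1 was also the library with the most melanoma marker RNA and the fewest genes detected, and 0.525% of the 9328 genes averaging 5 CPM or more had 0 counts in it, against 0.364% in IS2 and 0.0107% to 0.129% in the DMSO and IP libraries. Of the 12 macrophage markers, 7 were lower in IS1 than in IS2, such as Csf1r (353 CPM in IS1 and 1128 in IS2) and Itgam (103 and 384 CPM), and 5 were higher, such as C1qb (6804 and 5323 CPM) and Cd68 (3317 and 2877 CPM). IP1, also low for Tlr1, Tlr4, Tlr8 and Tlr13, summed to 551 CPM of melanoma marker RNA against 624 and 707 CPM in the DMSO libraries. Its 13412 genes with a count were more than the 13083 of IS2 but the fewest among the DMSO and IP libraries. The part of library makeup in the receptor differences was not tested.

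The genes that followed Tlr4 and Tlr8 most closely were chosen by that likeness, so sharing their low libraries follows from the choice. Over the 8 libraries Tlr4 was followed by Cdc6, a replication licensing factor (r = 0.996), and the nuclear lamin gene Lmnb2 (r = 0.995). Tlr8 was followed by the replication gene Gins3 (r = 0.994) and the Mediator subunit gene Med23 (r = 0.989). Cdc6 stood at 1.34 CPM in IP1 and 0.336 in IS1, against 16.6 to 41.4 CPM in the other 6 libraries. Tlr1 was followed by Atf7 (r = 0.985) and Lmnb2 (r = 0.973), and Tlr13 by Azi2 (r = 0.992) and Camk2d (r = 0.990). Tlr3 was followed by Zfp689 (r = 0.975) and Med7 (r = 0.960), Tlr2 by Dcp1a (r = 0.955) and Gm2a (r = 0.954), and Tlr7 by Tnfrsf1b (r = 0.981). Tlr6 (Abcc5, r = 0.938, and Sla, r = 0.929) and Tlr9 (Setd5, r = 0.933) had the least similar partners. These are the closest of 9319 genes over 8 libraries in separate clusters, and carry no test.

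The 3 receptor genes outside the 10 were low. Tlr5, the flagellin receptor, was counted 37 and 60 times in DMSO1 and DMSO2, 0, 39, 24 and 70 in IP1 to IP4, and 95 and 3 in IS1 and IS2. Tlr12 ranged from 0 counts in IP4 to 158 in IP3, and Tlr11 had at most 6 counts. Neither Tlr5 nor Tlr12 met the criterion in a comparison, and Tlr11 was too low to be tested.

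Apart from Cd14 itself, no gene in the list of accessory proteins, which hand ligands to the receptors or carry the receptors, met the criterion. Of these 12 genes, 0 met the criterion in each of the 3 comparisons, and 0, 0 and 1 had an unadjusted P under 0.05 in IP against DMSO, IS against DMSO and IS against IP. Their median log2 fold changes were -0.14, -0.18 and 0.10 in that order. Ly96, which encodes MD-2, stood at 42.9 and 55.3 CPM in the DMSO mice and 43.2 and 43.0 CPM in the IS mice, with a log2 fold change of -0.21 in IS against DMSO (SE 0.34). Unc93b1 stood at 1058 and 636 CPM in the DMSO mice and 988 and 1237 CPM in the IS mice (log2 fold change 0.37, SE 0.37). Of 19 adaptor and kinase genes, 0 met the criterion and 0 had an unadjusted P under 0.05 in each comparison. Myd88 ran from 98.2 to 120 CPM in DMSO, from 74.7 to 117 CPM in IP and from 84.2 to 89.8 CPM in IS. Its log2 fold change was -0.35 in IS against DMSO (SE 0.31), and the median of the 19 genes was 0.06.

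Inhibitors of the pathway were more mixed. Of 15 tested, 3 rose and 1 fell in IS against DMSO, beside 2.29% of all genes higher and 2.77% lower. In IP against DMSO 0 met the criterion and 0 had an unadjusted P under 0.05. In IS against IP 1 was higher and 1 lower, beside 2.41% of all genes higher and 4.64% lower. Tnfaip3, which encodes the ubiquitin-editing enzyme A20, stood at 65.6 and 35.5 CPM in the DMSO mice and 120 and 568 CPM in the IS mice (log2 fold change 2.75, SE 0.80, adjusted p = 0.747). Socs3, an inhibitor of cytokine signaling, had 30.7 and 25.2 CPM in the DMSO mice and 83.7 and 117 CPM in the IS mice (1.82, SE 0.36, adjusted p = 0.747). Nlrc3, an NLR protein that restrains TRAF6, fell from 14.4 and 13.3 CPM to 0.0673 and 1.89 CPM (-3.84, SE 1.36, adjusted p = 0.846). Of 7 endosomal proteases, some of which cleave the nucleic acid receptors, Ctss (cathepsin S) met the criterion in IS against DMSO, at 4474 and 2812 CPM in DMSO and 7000 and 8363 CPM in IS (1.05, SE 0.36, adjusted p = 0.822).

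Genes known to be induced by LPS in macrophages were listed as well. Whether Toll-like receptors drove their levels in these mice was not tested. Of 23 tested in IS against DMSO, 12 rose and 1 fell, beside 2.29% of all genes higher and 2.77% lower. Their median log2 fold change was 1.34, against 0.02 over all genes. The smallest P belonged to Il1b, the pyrogenic cytokine, at 6.92 and 8.96 CPM in the DMSO mice and 252 and 381 CPM in the IS mice (log2 fold change 5.29, SE 0.43, adjusted p = 0.151). The neutrophil chemoattractant Cxcl2 (4.34, SE 0.44, adjusted p = 0.362) and the NF-kB inhibitor gene Nfkbia (2.45, SE 0.30, adjusted p = 0.533) came next. Beside 1.53% of all genes higher and 0.468% lower in IP against DMSO, 3 of 23 rose and 0 fell, with a median of 0.82. These were Il1a (log2 fold change 1.13, SE 0.42, adjusted p = 0.980), the acute-phase gene Saa3 (4.05, SE 1.56) and Lcn2 (2.54, SE 1.05). In IS against IP, where 2.41% of all genes were higher and 4.64% lower, 2 of 24 were higher and 2 lower. Those higher were Ptgs2 (cyclooxygenase-2, 3.68, SE 0.76) and Il10 (1.87, SE 0.57). Those lower were the scavenger receptor Marco (-1.88, SE 0.51) and Saa3 (-3.35, SE 1.44). IP1 resembled the IS mice for some of these genes: Il1b stood at 228 CPM and Cxcl2 at 608 CPM there, against 0.992 to 7.73 CPM and 16.2 to 24.0 CPM in the other IP mice. IP1, IS1 and IS2 are also the 3 libraries with the highest Cd14 and immediate-early levels. The sample titles of these 3 libraries carry the lowest numbers of all. What the title numbers stand for is not given in the sources used here, and their part was not tested. In IS against DMSO, the order of the titles and the treatment cannot be told apart.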

How the data were processed

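RNA of sorted TAMs from 8 mice had been sequenced after mRNA library preparation (KAPA mRNA HyperPrep). The deposited table holds raw counts per gene symbol made by the authors, with no normalization. The submitters' notes name TopHat2, edgeR and mm10, whereas the study's methods name bowtie2 (2.2.3) and RSEM (1.2.15) with edgeR. The annotation release and the strand setting of the counting are not given in the sources used here, so reads of overlapping antisense genes could not be separated. All values in the table were whole numbers.

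Groups were taken from the sample labels, and each sample is 1 mouse. Each pair of groups was fitted separately in edgeR (4.0.16, R 4.3.3) by glmQLFit and glmQLFTest with TMM scaling. Genes were kept by filterByExpr (minimum count 10, minimum total 15). CPM used a prior count of 2 on the log2 scale. The criterion was P under 0.05, unadjusted, and at least 2-fold, as in the study, with Benjamini-Hochberg adjustment beside it. With 2 against 2 mice an exact permutation test cannot go below p = 0.333, and with 4 against 2 not below 0.133, so no such test was run. The fits were tested on simulated counts. DESeq2 (1.42.0), edgeR's likelihood ratio test, RLE and library-size scaling, other gene filters, 1 fit for all groups, a replicate block and leaving out each mouse were alternatives.

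The replicate numbers in the labels were not taken as pairs of mice. Deviations of same-numbered samples from their group means correlated at -0.129 to 0.071. In a group of 2 mice the deviations mirror each other, so these values cannot exclude a pairing. No 2 libraries of a group agreed within sampling noise (chi-square per degree of freedom 50.6 to 177). Members, lists and similar-gene rules were chosen with earlier results of these data known. The genes named are the 10 members, Tlr5, Tlr11, Tlr12, Ly96, Unc93b1 and Myd88, up to 3 genes of smallest P meeting the criterion in each list and comparison, up to 2 genes most like each member (some are not reported here), and markers of other cell types. C1qb, Cd68, Csf1r, Egr1, Fos and Jun were named after their values were seen. Exon lengths and positions came from GENCODE M21 and upstream sequences from RefSeq (GRCm38.p6). Counting error alone is covered by the 3-count limit.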

Additional observations from a re-analysis of the deposited data

Results flagged for a closer look

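The IS and IP groups gave different values for 2 of the genes, each by a direct test of IS against IP with edgeR's quasi-likelihood test. For Tlr3 the log2 fold change was 1.56, with both IS mice above the 4 IP mice and an adjusted p of 0.346. For Cd14 the log2 fold change was 2.08, with both IS mice above the 4 IP mice and an adjusted p of 0.449. Neither passed adjustment over the genes tested. Among the 4 IP mice, the gap of the farthest mouse in log2 CPM was tested against Dixon's limit for each of the 10 genes. On this scale 0 of 10 exceeded it. The nearest was the low Tlr8 level of IP1, with a gap of 0.824 of the log2 range. Gaps in CPM differ from those in log2 CPM, above all for high levels such as Cd14 in IP1, and were not tested. With 4 mice this test can miss a mouse that stands apart, so it does not show that IP1 was like the other IP mice.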

How the results depend on the processing

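Of 387 alternative values for single genes, 338 kept direction and side of the criterion, 13 newly met it, 6 lost it and 30 changed sign. Cd14 in IS against DMSO met the criterion under all 12 alternatives, with log2 fold changes from 2.38 to 2.94. With all mice kept, its adjusted p was 1.02e-11 with DESeq2 and 8.03e-08 with the likelihood ratio test. With the quasi-likelihood test it was 0.0449 with no gene filter and 0.0186 with the replicate block. It was 0.41 to 0.698 under the other alternatives that kept all mice. Tlr3 in IS against IP met the criterion under all 16, from 1.30 to 1.83. With 2 mice in a group, leaving one out leaves a lone mouse whose spread is borrowed from the other group.

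The number of genes meeting the criterion was 0 in IP against DMSO under every alternative. In IS against DMSO it was 1 with library-size scaling, which shifted the median of all genes to -0.135, and 1 to 6 with mice left out: 1 without DMSO1 or DMSO2, 3 without IS1 and 6 without IS2. In IS against IP it was 2 to 4 with mice left out, 4 without IS2, and 1 with only IP1 and IP2. With the replicate block it was 3 in IS against DMSO (Cd14, Tlr4, Tlr8) and 2 in IS against IP. In IS against DMSO the block gave Tlr4 -1.87, Tlr8 -2.88 and Tlr3 1.45, the last no longer meeting the criterion. The causes were not tested.

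Sign changes concerned genes that did not meet the criterion. In IP against DMSO, Tlr6 was -0.003 with library-size scaling and -0.02 with the block, and Tlr13 was -0.23 with the block. With only IP1 and IP2 (an alternative added after seeing the data), Tlr2 was 0.048, Tlr6 -0.024 and Tlr13 -0.17. Tlr6 in IS against DMSO was 0.001 in the fit of all 3 groups. Without IP1 and IS1 (also added), IS against IP gave Tlr6 0.066, Tlr7 0.15 and Tlr13 0.13, and with only IP1 and IP2 Tlr13 was 0.008.

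With 1 mouse left out at a time, IP against DMSO ranged from -0.32 to 0.91 for Cd14, -0.48 to 0.18 for Tlr2, -0.39 to 0.24 for Tlr3, -0.072 to 0.21 for Tlr6 and -0.074 to 0.46 for Tlr13. IS against DMSO ranged from -0.50 to 1.51 for Tlr2, -0.28 to 0.17 for Tlr6, -0.49 to 0.30 for Tlr7 and -1.52 to 0.52 for Tlr13. IS against IP ranged from -1.39 to 0.19 for Tlr1, -0.28 to 1.70 for Tlr2, -2.68 to 0.11 for Tlr4, -0.29 to 0.12 for Tlr6, -0.65 to 0.10 for Tlr7 and -1.66 to 0.35 for Tlr13. The log2 fold changes of Tlr9 could not be fitted in the 3 comparisons as reported.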

Other observations

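The ratio of Cd14 to Tlr4 in CPM, chosen after the values were seen, was 1.71 and 2.2 in the DMSO mice and 100.1 and 20.8 in IS1 and IS2. In the IP mice it was 42.2 in IP1 and 1.40, 1.26 and 3.48 in IP2 to IP4. The ratio of Tlr7 to Tlr8, neighbours on the X chromosome, was 2.21 and 2.29 in the DMSO mice, 14.6 in IP1, 2.0 to 3.41 in the other IP mice, 65.5 in IS1 and 4.64 in IS2. Ratios within a library do not depend on its scaling. They show unequal change between 2 genes and not which of them differed.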
